A study of Mus musculus with 13 samples.

Results

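Cardiac fibroblasts are marked by a set of genes that were followed here in mouse hearts under pressure overload, namely Meox1, Pdgfra, Pdgfrl, Thy1, Ddr2, Cthrc1, C1qtnf3, Ccdc80, Gxylt2 and Matn4. These 10 genes were chosen by name, with the results of all 4 groups already known, among them the response of vehicle-treated hearts to aortic constriction. The values of that response, and of every comparison that uses vehicle-treated hearts, are therefore given as a description without a test for single genes. A named probe measured 8 of the 10 genes, among 8336 genes measured in all, and each of the 8 passed the filter on dim probes, with C1qtnf3 detected in 12 and Matn4 in 10 of 13 hearts and the other 6 in all 13. The number of 8336 genes was the same without that filter. Ddr2, which encodes a receptor for fibrillar collagen, and Cthrc1, which encodes a secreted protein of collagen-producing fibroblasts, were not analysed here. The measured genes had the Entrez numbers 17285 (Meox1), 18595 (Pdgfra), 68797 (Pdgfrl), 21838 (Thy1), 81799 (C1qtnf3), 67896 (Ccdc80), 232313 (Gxylt2) and 17183 (Matn4).

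Fibroblasts are the main source of extracellular matrix in the heart. When the ventricle is overloaded or injured, resident fibroblasts divide, begin to express contractile and matrix genes, and lay down collagen, a state referred to as activation. Pdgfra is carried by fibroblasts at rest as well as by activated ones, while genes such as Cthrc1 are known for fibroblasts that produce much collagen.

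The hearts came from male C57BL/6 mice of 8 to 10 weeks, and this background was shared by all groups. In transverse aortic constriction (TAC) the aortic arch is tied to a smaller width, which loads the left ventricle with pressure. Sham mice went through the operation without the constriction. Tauroursodeoxycholic acid (TUDCA), a bile acid conjugate used to ease protein folding stress in the endoplasmic reticulum, was given by oral gavage in water at 300 mg/kg per day, and vehicle mice received water. Whole hearts taken 1 week after surgery were hybridized to Illumina MouseRef-8 v2 bead arrays, 1 heart per array, in the groups TUDCA-TAC (4 hearts), Veh-TAC (3), TUDCA-Sham (3) and Veh-Sham (3). Each heart is labelled as a biological replicate of its group, and replicate numbers here follow the sample descriptions, not the other numbers in the sample titles. In RNA of a whole heart, fewer cells of a type and less RNA per cell cannot be told apart.

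Levels are given as log2 signal after background correction and quantile normalization, so that a difference of 1 is a 2-fold difference, and levels of different genes are not set against each other because each probe binds with its own strength. On each array 11647 to 12791 probes were detected, meaning a detection p-value under 0.05 against the negative control beads. The median raw intensity of the arrays was 229 to 306 in the TUDCA-TAC group, 348 to 353 in the Veh-TAC group, 294 to 344 in the TUDCA-Sham group and 349 to 355 in the Veh-Sham group. Among these, TUDCA-TAC replicate 4, which carries the number 1 in its title, had the lowest value, 229, and TUDCA-Sham replicate 3 was the only array outside the TUDCA-TAC group under 320. The array of TUDCA-TAC replicate 4 also had a ratio of an upper to a lower quantile of raw intensity of 19.3, against 6.49 to 8.52 on all others. Its undetected probes had a median raw intensity of 165, against 260 to 316 on all others. The heart label was borne out by cardiomyocyte genes, of which Myh6, Actc1 and Myl2 were detected on 13 of 13 arrays.

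Promoter sequence was at hand for 4 of the 8 measured genes, and it is shown because 3 of them, C1qtnf3, Matn4 and Gxylt2, had the largest rises with TAC in vehicle-treated hearts on the background-corrected scale, while Pdgfra had none. The windows are 300 bases long around an annotated transcription start in RefSeq on build GRCm38.p6, at chr15:10952082-10952381 on the plus strand for C1qtnf3, chr2:164404769-164405068 on the minus strand for Matn4, chr6:100704484-100704783 on the plus strand for Gxylt2 and chr5:75152001-75152300 on the plus strand for Pdgfra. Capitals mark matches to 6 motifs searched on both strands, with positions counted from 1 at the 5′ end of the window.
C1qtnf3: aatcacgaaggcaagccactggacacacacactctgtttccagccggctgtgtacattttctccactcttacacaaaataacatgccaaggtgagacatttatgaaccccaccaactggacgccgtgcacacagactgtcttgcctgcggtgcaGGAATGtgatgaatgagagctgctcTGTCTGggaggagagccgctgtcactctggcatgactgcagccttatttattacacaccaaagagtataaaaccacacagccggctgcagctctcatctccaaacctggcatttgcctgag
Matn4: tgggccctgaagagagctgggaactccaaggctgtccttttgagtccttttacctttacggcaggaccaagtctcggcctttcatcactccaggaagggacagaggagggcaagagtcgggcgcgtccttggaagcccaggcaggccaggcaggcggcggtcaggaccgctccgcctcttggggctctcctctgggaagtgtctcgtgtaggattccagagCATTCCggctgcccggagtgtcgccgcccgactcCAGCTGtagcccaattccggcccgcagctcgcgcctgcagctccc
Gxylt2: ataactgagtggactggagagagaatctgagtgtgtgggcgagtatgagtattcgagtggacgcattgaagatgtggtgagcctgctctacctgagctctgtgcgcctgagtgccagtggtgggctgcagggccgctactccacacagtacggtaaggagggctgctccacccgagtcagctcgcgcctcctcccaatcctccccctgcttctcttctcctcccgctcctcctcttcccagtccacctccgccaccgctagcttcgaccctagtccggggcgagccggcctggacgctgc
Pdgfra: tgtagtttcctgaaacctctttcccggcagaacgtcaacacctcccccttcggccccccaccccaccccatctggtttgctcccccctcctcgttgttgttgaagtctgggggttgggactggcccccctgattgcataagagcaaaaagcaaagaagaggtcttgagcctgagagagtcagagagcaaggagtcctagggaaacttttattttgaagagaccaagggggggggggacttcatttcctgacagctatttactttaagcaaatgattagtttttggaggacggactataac
The C1qtnf3 window held the TEAD motif GGAATG at bases 155 to 160 and, on the other strand, the SMAD motif CAGACA at bases 180 to 185. In the Matn4 window the TEAD motif lay on the other strand at bases 222 to 227, and the E-box CAGCTG at bases 256 to 261. Neither the Gxylt2 nor the Pdgfra window held a match to any of the 6 motifs, nor did a second Matn4 window at chr2:164405111-164405410. Over all 32851 RefSeq windows of that length, 14.7% held GGAATG, 21% held CAGACA, 16.3% held CAGCTG, 7.81% the AP-1 motif TGANTCA, 1.63% a CArG box and 3.19% the MEF2 motif. None of these motifs overlapped another in the windows shown, and a match is a description of the letters only.

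In vehicle-treated hearts 7 of the 8 measured genes were higher after TAC, all but Pdgfra. C1qtnf3 rose most, by a log2 fold change of 4.02, which is 16.2-fold, and Thy1 rose least among the 7, by 0.95. The median log2 fold change was 2.00 over the 8 genes and -0.03 over all genes. At an adjusted p under 0.05 in limma, 12.5% of all genes were called higher in Veh-TAC hearts. Nothing is read from the count of 7 against that share, since the genes were chosen with this response known. The 7 genes also had no overlap between the groups, as did 19.4% of all genes in that direction.

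With TUDCA the log2 fold changes with TAC were smaller than with vehicle for 7 of the 8 genes, all but Pdgfra. In the TUDCA-TAC group against the TUDCA-Sham group, Meox1 and C1qtnf3 were called higher, 2 of 8 measured genes, against 1.02% of all genes called higher. The groups had no overlap for 5 of the 8, Meox1, Thy1, C1qtnf3, Ccdc80 and Gxylt2, all higher in TUDCA-TAC hearts, as held for 6.72% of all genes. The median log2 fold change was 0.43 over the 8 genes and 0.00 over all genes. The 7 hearts of this comparison are not those of the vehicle response. Its p-values are given gene by gene, adjusted over all genes by the Benjamini-Hochberg method. The genes were nonetheless listed with the results of all 4 groups known. The p-values and the count of 2 are therefore a description and not an independent test. Both calls lay close to the threshold. Each was lost when any heart other than TUDCA-TAC replicate 4 was left out, a total of 12 of the 13 hearts, including vehicle hearts that only add to the estimate of the spread. The adjusted p then ran up to 0.191 for Meox1 and 0.131 for C1qtnf3, while the log2 fold changes stayed between 0.92 and 1.32 for Meox1 and at 1.30 or above for C1qtnf3.

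**Figure D1:**
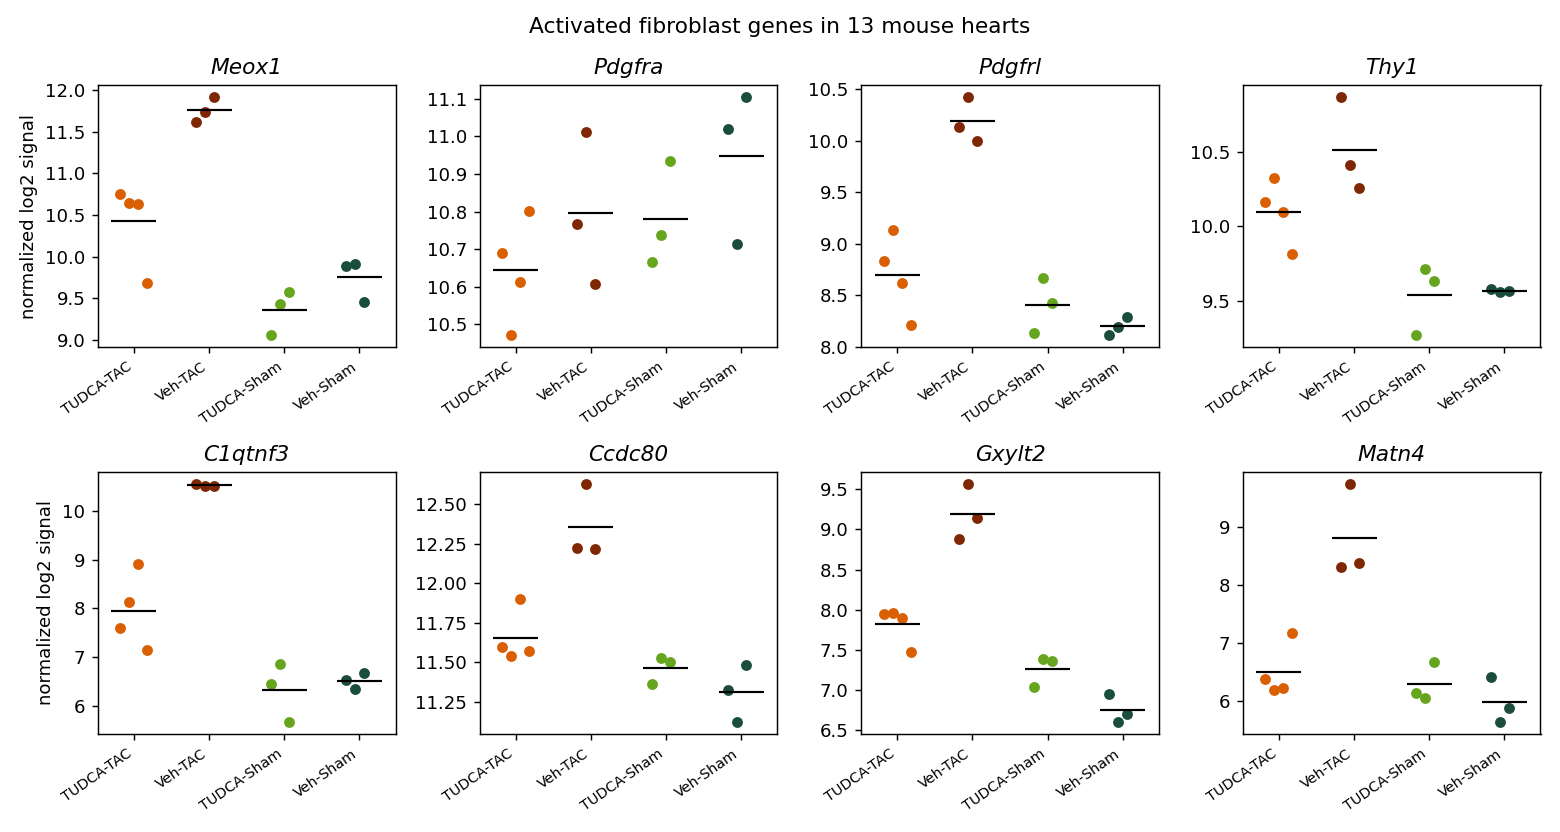
Normalized log2 signal of each of the 8 measured genes, with 1 point per heart and a bar at the group mean, in the TUDCA-TAC, Veh-TAC, TUDCA-Sham and Veh-Sham groups. The Veh-TAC hearts lie above the other 3 groups for Meox1, Pdgfrl, C1qtnf3, Ccdc80, Gxylt2 and Matn4, and the groups overlap for Pdgfra.

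Meox1 encodes a homeobox transcription factor, known in mice as a regulator of fibroblast activation in the stressed heart. Its log2 signal was 10.75, 10.64, 10.63 and 9.69 in the TUDCA-TAC hearts, against 9.06, 9.43 and 9.57 in the TUDCA-Sham hearts. In vehicle-treated mice it was 11.61, 11.73 and 11.92 in the Veh-TAC hearts, against 9.89, 9.91 and 9.45 in the Veh-Sham hearts. Neither TAC group overlapped its own sham group, and every TUDCA-TAC heart lay below every Veh-TAC heart. TUDCA-TAC replicate 4 was the lowest of its group and fell within the range of the Veh-Sham hearts. The log2 fold change was 1.07 with TUDCA (SE 0.24, adjusted p = 0.046 in limma, higher in 4 of 4 TUDCA-TAC hearts) and 2.00 with vehicle (SE 0.25). Among the alternatives that were run, the adjusted p of Meox1 with TUDCA lay between 0.00185 and 0.846.

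C1qtnf3 encodes a secreted protein of the C1q and TNF-related family, also known as CTRP3. Its log2 signal was 7.60, 8.13, 8.92 and 7.15 in the TUDCA-TAC hearts, against 6.44, 6.86 and 5.67 in the TUDCA-Sham hearts. The 3 Veh-TAC hearts had 10.56, 10.50 and 10.51, against 6.52, 6.34 and 6.67 in the Veh-Sham hearts. Neither TAC group overlapped its sham group, and the TUDCA-TAC hearts spread over a wider range than the Veh-TAC hearts. The log2 fold change was 1.63 with TUDCA (SE 0.35, adjusted p = 0.0432 in limma, higher in 4 of 4 TUDCA-TAC hearts) and 4.02 with vehicle (SE 0.38). Over the alternatives the adjusted p with TUDCA ran between 0.00385 and 0.354. A second probe of C1qtnf3 had mean log2 signals of 7.84 ± 0.65 (SD, n = 4) in TUDCA-TAC, 10.44 ± 0.18 (n = 3) in Veh-TAC, 6.19 ± 0.09 (n = 3) in TUDCA-Sham and 5.77 ± 0.44 (n = 3) in Veh-Sham hearts. It was detected in every TAC heart and in 1 of 3 hearts of each sham group, and its log2 fold changes were 1.65 with TUDCA and 4.66 with vehicle.

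Gxylt2, which encodes a xylosyltransferase that extends O-linked glucose on Notch, had log2 signals of 7.95, 7.95, 7.89 and 7.47 in the TUDCA-TAC hearts, against 7.04, 7.38 and 7.36 in the TUDCA-Sham hearts. With vehicle the values were 8.88, 9.57 and 9.14 in the Veh-TAC hearts, against 6.95, 6.60 and 6.70 in the Veh-Sham hearts. No TAC heart overlapped its sham group, yet the TUDCA comparison missed the threshold, with a log2 fold change of 0.56 (SE 0.18, adjusted p = 0.127 in limma), against 2.45 with vehicle (SE 0.19). Gxylt2 was also the only measured member whose sham groups did not overlap, being 0.51 higher in the TUDCA-Sham than in the Veh-Sham group on the log2 scale (SE 0.19). Over all genes 7.38% had no overlap between the sham groups in one direction or the other, and 0% were called between them by limma, with 204 genes at an unadjusted p under 0.05. The methods' t-test called 0 genes between the sham groups after Benjamini-Hochberg adjustment. At the paper's threshold, a 1.5-fold change and an unadjusted p under 0.05, it called 25 genes, 0.3% of all, and 0 members.

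Matn4 encodes a matrilin, an adaptor protein of the extracellular matrix. It had log2 signals of 6.37, 6.19, 6.22 and 7.18 in the TUDCA-TAC hearts, against 6.13, 6.05 and 6.66 in the TUDCA-Sham hearts. The Veh-TAC hearts had 8.30, 9.75 and 8.37, against 6.42, 5.63 and 5.87 in the Veh-Sham hearts. Only the Veh-TAC hearts stood apart, while the TUDCA-TAC and TUDCA-Sham hearts overlapped. The probe was dim: it was detected in 4 of 4 TUDCA-TAC, 3 of 3 Veh-TAC, 2 of 3 TUDCA-Sham and 1 of 3 Veh-Sham hearts. The log2 fold change was 0.21 with TUDCA (SE 0.35, adjusted p = 0.818 in limma) and 2.84 with vehicle (SE 0.38).

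Pdgfrl encodes a secreted protein that resembles the extracellular part of the platelet-derived growth factor receptors. Its log2 signal was 8.83, 9.13, 8.62 and 8.21 in the TUDCA-TAC hearts, against 8.14, 8.67 and 8.42 in the TUDCA-Sham hearts. Under vehicle it was 10.14, 10.43 and 10.00 in the Veh-TAC hearts, against 8.11, 8.19 and 8.29 in the Veh-Sham hearts. With TUDCA the TAC and sham hearts overlapped, with a log2 fold change of 0.29 (SE 0.20, adjusted p = 0.502 in limma), against 1.99 with vehicle (SE 0.21).

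Ccdc80 encodes a secreted matrix protein. It had log2 signals of 11.60, 11.54, 11.90 and 11.57 in the TUDCA-TAC hearts, against 11.36, 11.53 and 11.50 in the TUDCA-Sham hearts. The Veh-TAC hearts had 12.22, 12.63 and 12.22, against 11.33, 11.12 and 11.48 in the Veh-Sham hearts. The TUDCA groups were separated by a narrow margin, 11.54 in the lowest TUDCA-TAC heart against 11.53 in the highest TUDCA-Sham heart. Ccdc80 had a log2 fold change of 0.19 with TUDCA (SE 0.14, adjusted p = 0.539 in limma) and 1.05 with vehicle (SE 0.15).

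Thy1 encodes a membrane-anchored glycoprotein of fibroblasts, also known as CD90, which T cells and neurons carry as well. Its log2 signal was 10.17, 10.33, 10.10 and 9.81 in the TUDCA-TAC hearts, against 9.27, 9.71 and 9.63 in the TUDCA-Sham hearts. With vehicle it was 10.88, 10.41 and 10.26 in the Veh-TAC hearts, against 9.58, 9.56 and 9.56 in the Veh-Sham hearts. Both TAC groups lay above their sham groups, but the TAC groups overlapped each other. Thy1 had a log2 fold change of 0.56 with TUDCA (SE 0.16, adjusted p = 0.103 in limma) and 0.95 with vehicle (SE 0.18).

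Pdgfra, which encodes the alpha receptor for platelet-derived growth factors, went against the label of an activated fibroblast gene in these hearts. It had log2 signals of 10.69, 10.47, 10.61 and 10.80 in the TUDCA-TAC hearts, 10.77, 11.01 and 10.61 in the Veh-TAC hearts, 10.67, 10.74 and 10.93 in the TUDCA-Sham hearts and 11.02, 10.71 and 11.11 in the Veh-Sham hearts. All 4 groups overlapped. The log2 fold change was -0.13 with TUDCA (SE 0.13, adjusted p = 0.668 in limma) and -0.15 with vehicle (SE 0.14).

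Across the 13 hearts, Pearson's r with the mean of the standardised members was 0.03 for Pdgfra and 0.86 to 0.97 for the other 7 genes, as a description in which the groups themselves make up much of the spread and each gene is part of the mean. Among TUDCA-TAC hearts, replicate 4 was the lowest for 5 of the 8 genes but the highest for Matn4 and Pdgfra in normalized signal. Its raw intensity for Thy1, 1555, was the highest of the group, against 1256, 1435 and 1261, though its normalized value was the lowest. With 1 heart per array, heart and array cannot be told apart. In the Veh-TAC group replicate 2 was the highest for 5 of the 8 genes. Replicate 1 of the TUDCA-Sham group and replicate 2 of the Veh-Sham group were each the lowest for 6 of the 8.

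**Figure D2:**
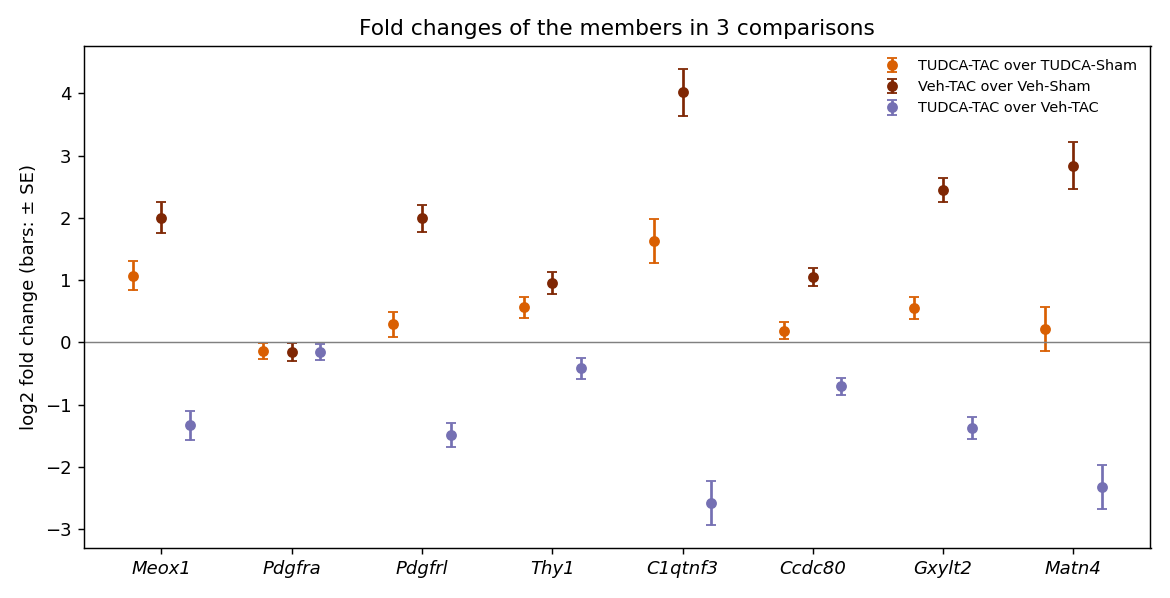
Log2 fold change of each measured gene in TUDCA-TAC over TUDCA-Sham, Veh-TAC over Veh-Sham and TUDCA-TAC over Veh-TAC hearts, with bars of 1 SE from the limma fit of 13 hearts. The log2 fold change with TAC was smaller with TUDCA for 7 of the 8 genes, and Pdgfra was near 0 in all 3 comparisons.

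Set directly against Veh-TAC hearts, TUDCA-TAC hearts had lower levels of 6 of the 8 measured genes, all but Pdgfra and Thy1. The log2 fold changes were -2.57 for C1qtnf3 (SE 0.35), -2.32 for Matn4 (SE 0.35), -1.49 for Pdgfrl (SE 0.20), -1.38 for Gxylt2 (SE 0.18), -1.33 for Meox1 (SE 0.24) and -0.71 for Ccdc80 (SE 0.14). Thy1 had -0.42 (SE 0.16) and Pdgfra -0.15 (SE 0.13). Over all genes 8.25% were called lower in TUDCA-TAC hearts, and 13.2% were lower with no overlap, as these 6 genes were. The comparison shares the Veh-TAC hearts with the vehicle response, so nothing is read from the count. The median log2 fold change was -1.36 over the 8 genes and 0.01 over all genes.

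All 4 TUDCA-TAC arrays had a lower median raw intensity than all 3 Veh-TAC arrays, so that treatment and raw intensity cannot be told apart between these groups. With the 5 arrays under a median of 320 entered as a block, a term that rests on TUDCA-Sham replicate 3, limma called 0 of the 8 genes and 0 of all genes between TUDCA-TAC and Veh-TAC hearts, with 778 of all genes at an unadjusted p under 0.05. With the log2 background of each array as a term in place of the block, 4 of the 8 were called lower, Pdgfrl, C1qtnf3, Gxylt2 and Matn4, and 145 of all genes were called. The log2 fold changes under the block were -1.59 for C1qtnf3, -2.89 for Matn4 and -1.66 for Meox1. In the comparison with TUDCA-Sham hearts the block also left 0 members called, and 451 of all genes at an unadjusted p under 0.05, with 0.85 for Meox1 (adjusted p = 0.846 in limma) and 2.28 for C1qtnf3 (adjusted p = 0.254). The calls between Veh-TAC and Veh-Sham hearts remained at 7 genes.

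The difference between the responses, the response with TUDCA less the response with vehicle, was -2.63 for Matn4 (SE 0.52), -2.39 for C1qtnf3 (SE 0.52), -1.89 for Gxylt2 (SE 0.26), -1.70 for Pdgfrl (SE 0.29), -0.93 for Meox1 (SE 0.35), -0.86 for Ccdc80 (SE 0.20), -0.39 for Thy1 (SE 0.24) and 0.02 for Pdgfra (SE 0.20) on the log2 scale. Limma called Matn4, C1qtnf3, Gxylt2, Pdgfrl and Ccdc80, 5 of 8, against 1.28% of all genes called in that direction. These values use the vehicle hearts and are a description. The median difference was -1.32 over the 8 genes and 0.01 over all genes. The count of 5 fell to 1 without any of Veh-Sham replicates 1, 2 and 3, Veh-TAC replicates 2 and 3 or TUDCA-Sham replicate 2, to 2 without TUDCA-Sham replicate 1 or 3 or TUDCA-TAC replicate 1 or 2, and to 3 without TUDCA-TAC replicate 4. Gxylt2 was called in each of these.

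**Figure D3:**
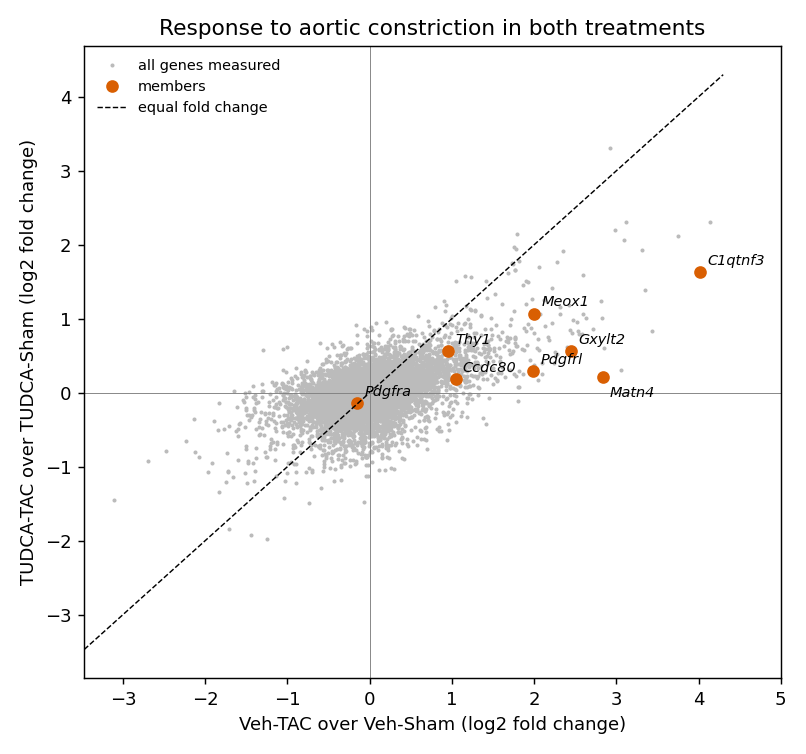
Log2 fold change with TAC under TUDCA (y axis) against the log2 fold change with TAC under vehicle (x axis) for 8336 genes in grey and the 8 measured members in orange, where the dashed line marks equal fold changes. The 7 members that rose with vehicle lie below the line, with C1qtnf3 at 4.02 and 1.63, and Pdgfra lies near the origin.

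The sham groups differed little for the members. Between TUDCA-Sham and Veh-Sham hearts the log2 fold changes were -0.40 for Meox1, 0.31 for Matn4, 0.21 for Pdgfrl, -0.19 for C1qtnf3, -0.17 for Pdgfra, 0.15 for Ccdc80 and -0.03 for Thy1, beside the 0.51 of Gxylt2. Their median was 0.06, and 0 of the 8 were called. In order of group means, Veh-TAC hearts were the highest for 7 genes, with the TUDCA-TAC hearts next, and the TUDCA-Sham and Veh-Sham hearts overlapped in 7 of the 8 genes.

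A list of 15 resident fibroblast genes, all measured, responded unevenly. This list and those below were chosen with earlier results of these data known. Their counts and p-values are therefore a description and not an independent test. In Veh-TAC hearts 5 rose and 2 fell, against 12.5% of all genes called higher and 12.5% called lower, with a median log2 fold change of 0.35. Mfap5, a protein of elastic microfibrils, rose by 3.34, Fstl1, a secreted glycoprotein, by 2.31 and Lum, a collagen-binding proteoglycan, by 1.27. Gsn, which encodes the actin-severing protein gelsolin, fell by 1.38 and Scara5, a ferritin receptor, fell by 1.28 on the log2 scale, while Htra3, a secreted protease, had -0.24. With TUDCA only Fstl1 was called between TAC and sham hearts, with a log2 fold change of 1.16 (adjusted p = 0.0279 in limma), 1 of 15, against 1.02% of all genes called higher and 0.768% called lower. The median of the list with TUDCA was -0.00.

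Of 20 other genes of activated fibroblasts, 15 were measured. Nothing is read from the counts of this list against the shares of all genes, since it too was chosen with earlier results known. Veh-TAC hearts had 11 of them called higher and 0 lower, against 12.5% of all genes called higher and 12.5% called lower. The median log2 fold change was 1.86. Lox, which crosslinks collagen and elastin, rose by 4.14, Timp1, an inhibitor of matrix metalloproteases, by 3.11 and Tnc, the matrix glycoprotein tenascin C, by 3.09. Ltbp2, a microfibril protein, and Dkk3, a secreted protein of the Dickkopf family, had the only negative values, -0.41 and -0.06. Acta2 had 0.15 and Tagln 0.32, and neither was called. With TUDCA 4 of the 15 were called higher, against 1.02% of all genes, and 0 lower, with a median of 0.59. These were Lox with 2.31 (adjusted p = 0.00159), Timp1 with 2.31 (adjusted p = 0.0127), Tnc with 2.07 (adjusted p = 0.00165) and Sparc, a collagen-binding matrix protein, with 1.25 (adjusted p = 0.0035), all from limma. Between TUDCA-TAC and Veh-TAC hearts 8 of the 15 were called lower and 0 higher, against 8.25% of all genes called lower. Among the 4 genes called with TUDCA, the log2 fold change was -1.56 for Lox and -0.96 for Sparc, both called. It was -0.88 for Timp1 and -0.64 for Tnc, neither of them called. Acta2 had 0.25 and Tagln -0.02.

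Relatives and partners of the members, such as other receptors, ligands and transferases of their families, were measured for 18 of 25 genes and showed the pattern only in part. In Veh-TAC hearts 4 were called higher and 2 lower, against 12.5% of all genes higher and 12.5% lower. The median log2 fold change was 0.14. Srpx2, a secreted protein, rose by 2.42, C1qtnf7 by 0.94, C1qtnf2 by 0.61 and Pdgfc by 0.60. C1qtnf4 was lower, with a mean log2 signal of 7.22 in Veh-TAC and 8.72 in Veh-Sham hearts, and C1qtnf9 fell by 0.51 on the log2 scale, so that relatives of C1qtnf3 went in both directions. Notch1, which encodes a receptor of the family that Gxylt2 modifies, had -0.36. With TUDCA 1 of the 18 was called, Srpx2, which was higher by 1.19 (adjusted p = 0.0262 in limma), against 1.02% of all genes called higher. Between TUDCA-TAC and Veh-TAC hearts the 4 that rose with vehicle were called lower, Srpx2, C1qtnf7, C1qtnf2 and Pdgfc, and 1 was called higher. Over all genes 8.25% were called lower in that comparison.

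The 5 genes outside the members with the highest Pearson r with the mean of the standardised members over 13 hearts were Loxl1 (0.981), Prnp (0.978), Mfap2 (0.976), Col1a2 (0.975) and Ptn (0.975). Loxl1, a lysyl oxidase that acts on elastin, had mean log2 signals of 12.80 in TUDCA-TAC, 13.81 in Veh-TAC, 12.23 in TUDCA-Sham and 12.29 in Veh-Sham hearts. Ptn, the growth factor pleiotrophin, had means of 8.98 in TUDCA-TAC, 11.62 in Veh-TAC, 8.15 in TUDCA-Sham and 8.18 in Veh-Sham hearts. Col1a2, a chain of type I collagen, had means of 9.56 in TUDCA-TAC, 11.20 in Veh-TAC, 8.77 in TUDCA-Sham and 8.66 in Veh-Sham hearts. Against Veh-TAC hearts, TUDCA-TAC hearts had log2 fold changes of -2.63 for Ptn, -1.64 for Col1a2, -1.47 for Mfap2, a microfibril protein, and -0.54 for Prnp, the prion protein.

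Markers of other cells moved along with the members in part. Of 10 macrophage markers 8 were measured, and their summed linear signal was 12384 to 15984 in TUDCA-TAC hearts, 22945 to 27017 in Veh-TAC hearts, 13426 to 18041 in TUDCA-Sham hearts and 13179 to 14122 in Veh-Sham hearts. In Veh-TAC hearts 7 of the 8 were called higher, against 12.5% of all genes, with log2 fold changes between 0.44 for Mrc1 and 1.31 for Fcgr1. In TUDCA-TAC hearts 0 of the 8 were called against TUDCA-Sham, with a median log2 fold change of 0.22. Values lay between -0.42 for Lyz2 and 0.61 for Fcgr1. Against Veh-TAC hearts 4 were called lower in TUDCA-TAC hearts, as were 8.25% of all genes. The part of macrophage content in the members' values was not tested.

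The summed signal of 9 mural cell markers was 28143 to 38217 in TUDCA-TAC and 34773 to 51709 in Veh-TAC hearts, against 22989 to 27137 in TUDCA-Sham and 23573 to 28244 in Veh-Sham hearts. Most of that sum is Des, which cardiomyocytes express as well, and without Des the sums of the other 8 were 8592 to 15722 in TUDCA-TAC and 7161 to 7403 in Veh-TAC hearts, against 8212 to 9540 in TUDCA-Sham and 7834 to 10398 in Veh-Sham hearts. With vehicle 1 of the 9 was called higher, Des with 1.12, and 2 lower, with Abcc9 the lowest at -1.31. Over all genes 12.5% were called higher and 12.5% lower with vehicle. The median of the 9 was -0.42, and with TUDCA 0 were called. Between TUDCA-TAC and Veh-TAC hearts 4 were called higher, Myh11, Abcc9, Notch3 and Mylk, and 1 lower, Des. In that comparison 681 of 8336 genes were called higher and 688 lower. Proliferation genes, of which 6 of 12 were measured, had 3 called higher and 1 lower with vehicle and 4 higher and 0 lower with TUDCA. With TUDCA 1.02% of all genes were called higher and 0.768% lower. The sums of the proliferation genes were 1167 to 1731 in TUDCA-TAC, 1166 to 1552 in Veh-TAC, 688 to 857 in TUDCA-Sham and 807 to 983 in Veh-Sham hearts. Among these Cdk1 had a log2 fold change of 1.67 with TUDCA and 1.76 with vehicle. The sums of 6 mesothelial markers were lower after TAC in medians, 1174 in TUDCA-TAC against 3024 in TUDCA-Sham hearts and 1472 in Veh-TAC against 2775 in Veh-Sham hearts. The part of these cells in the members' values was not tested.

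Cardiomyocyte markers could be compared only in part, since Actc1, Mb, Myl2, Myl3 and Tnnc1 lay within 10% of the highest raw intensity on 13 of 13 arrays, and Myh6 on 5. Of the 9 measured, Tnni3 was called lower with vehicle by a log2 fold change of -0.61, while Myh6 had -0.35 and Pln -0.25. With TUDCA 0 of the 9 were called, with -0.31 for Tnni3. Of 9 endothelial markers 1, Egfl7, was called higher with vehicle. Of 4 adipocyte markers 1, Car3, was called lower with vehicle. Over all genes 12.5% were called higher and 12.5% lower with vehicle. Cd28, the only 1 of 10 T cell markers measured, was lower with vehicle by a log2 fold change of -1.05. Its mean log2 signal was 6.69 in Veh-TAC hearts. The part of T cells in the values of Thy1 was not tested.

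**Figure D4:**
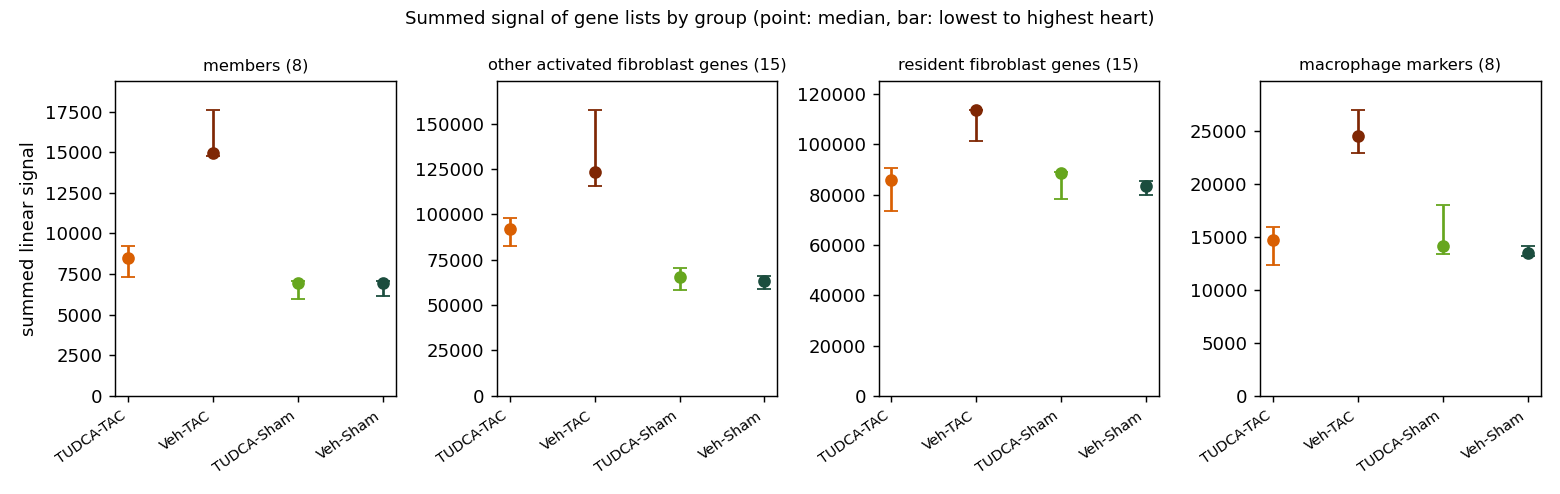
Summed linear signal for the measured members, other activated fibroblast genes, resident fibroblast genes and macrophage markers (panels, number of genes in brackets), with the group median as a point and the lowest and highest heart as a bar. The members sum to 7308 to 9253 in TUDCA-TAC, 14797 to 17628 in Veh-TAC, 5977 to 7069 in TUDCA-Sham and 6149 to 7099 in Veh-Sham hearts, and the macrophage markers are also highest in Veh-TAC hearts.

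Background correction set the size of the folds of dim probes. Without it, the vehicle log2 fold change was 2.28 for C1qtnf3, 1.72 for Meox1, 1.35 for Pdgfrl, 1.19 for Gxylt2 and 1.17 for Matn4, so that Gxylt2 and Matn4 came below Meox1 and Pdgfrl, and the rise of C1qtnf3 with TUDCA was 0.61 and was not called, while Meox1 was called.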

How the data were processed

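Total RNA of 13 hearts was hybridized to Illumina MouseRef-8 v2 bead arrays. The authors deposited raw mean bead intensity and a detection p-value for 25697 probes, and, for 11732 probes, log2 values whose normalization is not given in the sources used here. These differ by at most 0.119 from quantile-normalized raw intensities. No deposited column was left out. Raw intensities were corrected with limma 3.58.1 in R 4.3.3 (normexp, negative controls inferred from detection p-values, offset 16), quantile normalized and put on the log2 scale. A probe was used if its detection p-value was under 0.05 on 3 or more arrays, and the brightest named probe stood for each of 8336 genes. Of 13557 probes that passed, 11078 had a name. Without the filter the number of genes was also 8336, so the names and not the filter set which genes were tested. Probe names came from the platform annotation, updated by Entrez number. A means model of 4 groups was fitted to all arrays with lmFit and eBayes, with Benjamini-Hochberg adjustment over all genes and calls at an adjusted p under 0.05. The fit was tested on simulated data. The number of arrays limits the precision. Members and lists (resident and activated fibroblasts, relatives, other cells) were chosen with earlier results of these data known. Named genes were all measured members, the 3 largest rises and falls with vehicle in each fibroblast or relative list, every gene of them called with TUDCA, and 5 genes most like the members; cell markers were named where their sums moved, and others after their values were seen. Alternatives covered background, normalization, probes, variance model, test, blocks and left-out hearts. The pairing by replicate number of the descriptions and by number in the titles was checked and not used.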

Additional observations from a re-analysis of the deposited data

Results flagged for a closer look

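In the TUDCA-TAC group of 4 hearts, a single heart was flagged as apart from the others for 3 of the 8 measured genes. The rule sets the gap against the range of the group, so a small gap can be flagged, and it flags about 1 in 20 groups by chance. Nothing is read from the count of 3, since Meox1 and Gxylt2 were flagged in the same heart and the genes share their arrays. Meox1 was 9.69 in replicate 4, with the nearest heart at 10.63, and Gxylt2 was 7.47 in the same replicate, with the nearest at 7.89, all as log2 signal. Replicate 4 also had the lowest raw background of all arrays. Ccdc80 was 11.90 in replicate 3, with the nearest heart at 11.60.

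In limma's test of the difference itself, the response to TAC differed between TUDCA and vehicle for 5 of the 8 genes. Over all genes 1.28% were called in that direction. The count is given as a description because the genes were chosen with the vehicle response known. It ran from 1 to 5 without 1 heart, and was 0 with arrays of lower raw intensity as a block. The log2 differences were -1.70 for Pdgfrl, -2.39 for C1qtnf3, -0.86 for Ccdc80, -1.89 for Gxylt2 and -2.63 for Matn4. All 5 rose with vehicle, and of these C1qtnf3 was also called with TUDCA.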

How the results depend on the processing

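No member reversed its direction as a called gene in any alternative that was run. The count of members called in TUDCA-TAC against TUDCA-Sham hearts, 2, was 1 without background correction, 1 with the authors' normalized table and 1 with probes detected on all 13 arrays, which left 6 members. It was 4 with median scaling, which moved the median of all genes by 0.12, and 4 with array weights, both adding Thy1 and Gxylt2. It was 0 with only the groups compared, 0 with the methods' t-test after Benjamini-Hochberg and 0 with arrays of lower raw intensity as a block, an alternative chosen after seeing the data. Leaving out 1 heart gave 0 to 2. Against Veh-TAC hearts the 6 calls became 0 with the methods' t-test after Benjamini-Hochberg, 0 with that block, 4 with array background as a term and 4 with probes detected on all 13 arrays, and stayed at 6 with the methods' t-test at their threshold and without any 1 heart. For the difference between the responses the 5 calls became 3 with probes detected on all 13 arrays, 3 with array background as a term, 3 with the replicate block and 0 with the block of lower intensity, and 1 to 5 without 1 heart. The vehicle response kept 7 calls without any 1 heart and 5 to 7 otherwise, apart from the block by title number. The cause of these changes was not tested, apart from the fewer members or hearts that an alternative itself leaves. The deviations from group means of hearts with the same replicate number had r between -0.38 and 0.44 over 18 pairs. Their median r was 0.004, against -0.03 over 45 pairs with unlike numbers. These pairs share hearts and cannot exclude a pairing, so the number is used here only to name a heart. With the replicate block 223 genes were called with TUDCA, against 149 without it and 239 without TUDCA-TAC replicate 4, the only heart of that number, which the block takes out too. For the numbers in the titles r lay between -0.39 and 0.38 over 8 pairs, with a median of -0.02, which cannot decide on a pairing either. As a replicate block, chosen after seeing the data, the title numbers left 1 member called in the vehicle response, 0 with TUDCA, 0 against Veh-TAC and 0 in the difference, with hearts whose number occurs once taken out, among them 2 of 3 Veh-TAC hearts. Chip could not be entered as a block because the headers used here name no chip, and the t-test and the fits of only the groups compared give no difference between responses. Dim probes such as that of Matn4 are limited by signal near background.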
